A study of Homo sapiens with 6 samples.

Results

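Nucleolar ribosome biogenesis genes were followed in MDA-MB-231 cells after ZNF148 knockdown. The 38 genes were given as a list of symbols that spans the work of the nucleolus: 6 nucleolar scaffold and regulatory proteins, 4 proteins of box C/D snoRNPs, 4 of box H/ACA snoRNPs, 6 of the RNA polymerase I machinery, 10 small-subunit and 8 large-subunit assembly factors. A row of the expression table counted as a gene's row when its name, split at commas, held the gene's symbol. All 38 symbols were found, each in 1 row, among 24108 rows, of which 11777 had a mean of at least 1 FPKM (fragments scaled to transcript length and library size) over the 6 samples and were tested. All 38 rows passed this filter and none was listed at 0 in any sample. NOP56 shares its row with MIR1292 and SNORD86, NOP2 with CHD4 and NOLC1 with PPRC1, so these 3 rows cannot be assigned to a single gene, and 35 genes have a row of their own.

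The established line MDA-MB-231 comes from a triple-negative breast cancer of basal type. RNA-seq compared 3 samples that carried a lentiviral short hairpin against ZNF148, a zinc finger transcription factor (shZNF148), with 3 that carried a hairpin against firefly luciferase (shCtr). Cells of both groups were transduced for 48 h and selected for 24 h in puromycin at 0.5 µg/ml, and total RNA was taken from the selected cells. The labels name 1 hairpin per target and do not say that replicates were separate cultures, so the p-values measure only the spread between these samples, which may be technical.

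Ribosomes are built in the nucleolus. RNA polymerase I, loaded by UBTF and RRN3, transcribes the ribosomal RNA precursor, small nucleolar RNPs guide its methylation and pseudouridylation, and large sets of assembly factors cleave it and fold it into the precursors of the small and the large subunit. Many of the genes for these proteins are known targets of the transcription factor MYC, which binds the E-box CACGTG, and cancer cells with high MYC commonly have prominent nucleoli.

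Promoter sequence was searched for the E-box and for a G-rich motif. RefSeq promoter windows of 300 bases on GRCh38.p14, from 250 bases before to 50 after an annotated start, were matched for 33 of the 38 genes (not BOP1, TCOF1, NOLC1, NOP58 or RRP12). CACGTG, which reads the same on both strands, was in a window of 16 of the 33 genes (48.5%), against 8.77% of 27305 genes with a window and 12.8% of 8520 genes whose rows were tested. The first base of the motif lay within 50 bases of the start at 15 of the 17 sites in these genes (88.2%), against 36.9% of 2821 sites in all windows. The G-rich motif CCCTCCCC, searched on both strands and not overlapping the E-box, was in a window of 4 of the 33 genes (12.1%), against 15.6% of all genes and 22.1% of genes whose rows were tested. A match is a description of these letters and not of binding. Many of these genes are known MYC targets, so their E-box share cannot be told apart from the choice of the list. Below are the GNL3 promoter, cut at 30 bases after the start, because GNL3 is the only one of the 38 genes past the test, and 30-base windows around the E-box of 8 further genes that cover both directions of change. All read 5′ to 3′ on the strand of the gene, with the E-box in capitals.
GNL3 promoter (chr3:52685782-52686061, plus strand): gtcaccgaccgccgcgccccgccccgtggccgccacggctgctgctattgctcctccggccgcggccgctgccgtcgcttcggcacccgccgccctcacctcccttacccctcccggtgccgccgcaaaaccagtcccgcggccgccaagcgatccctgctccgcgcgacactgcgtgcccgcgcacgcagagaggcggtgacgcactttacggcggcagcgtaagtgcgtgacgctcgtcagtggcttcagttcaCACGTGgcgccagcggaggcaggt
UTP20 (chr12:101280083-101280112, plus strand): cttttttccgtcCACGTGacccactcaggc
NOL6 (chr9:33473894-33473923, minus strand): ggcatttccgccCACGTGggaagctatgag
NAT10 (chr11:34105602-34105631, plus strand): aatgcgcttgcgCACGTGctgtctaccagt
BYSL (chr6:41921515-41921544, plus strand): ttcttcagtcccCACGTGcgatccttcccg
FBL (chr19:39846356-39846385, minus strand): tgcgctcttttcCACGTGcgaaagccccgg
PES1 (chr22:30591880-30591909, minus strand): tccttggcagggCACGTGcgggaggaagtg
NOP14 (chr4:2963374-2963403, minus strand): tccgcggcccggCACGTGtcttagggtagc
NOP10 (chr15:34343130-34343159, minus strand): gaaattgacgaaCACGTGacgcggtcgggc

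**Figure D1:**
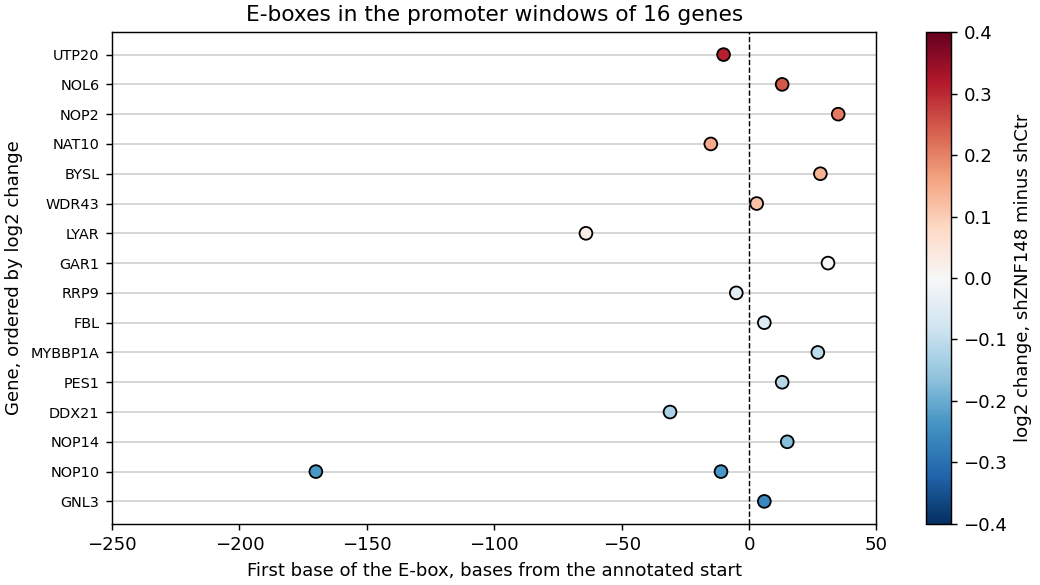
Position of each E-box (first base, in bases from the annotated start, dashed line at the start) in the promoter windows of 16 genes, ordered from the highest to the lowest log2 change (shZNF148 minus shCtr), which the colour gives. Of the 17 sites, 15 lie within 50 bases of the start, at genes of both signs from UTP20 at the top to GNL3 at the bottom, and NOP10 holds a pair of sites.

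The targeted gene was lower in all libraries with its hairpin. ZNF148 was at 3.72, 4.36 and 4.30 FPKM in shCtr samples 1, 2 and 3 and at 0.914, 0.282 and 0.834 in shZNF148 samples 1, 2 and 3. The groups did not overlap, and the shZNF148 mean was 16.4% of the shCtr mean. On log2(FPKM + 1), which lowers changes at such low levels, ZNF148 changed by −1.63 (SE 0.18, limma adjusted p = 0.0099 over all rows tested). Without shCtr 1 or shCtr 3 that p was 0.0673 or 0.0653. Markers of the line (VIM, CD44, CAV1, MSN and AXL) stood at 174 to 1842 FPKM in the 6 samples. All but CAV1 were lower in every shZNF148 sample than in any control: CD44 fell by 0.46 (limma adjusted p = 0.0185) and AXL by 0.29 (adjusted p = 0.0364), while VIM and MSN changed by −0.22 each (adjusted p = 0.0563 and 0.0562). The call was lost in 4 of 15 alternative fits for CD44 and in 9 for AXL, and the part of these shifts in the changes below was not tested. ESR1 was listed at 0 throughout, and PTPRC, PECAM1 and ALB reached at most 0.136 FPKM. Of the other luminal or epithelial markers, PGR reached 0.083 and CDH1 0.491 FPKM, EPCAM lay between 7.996 and 11.1 and GATA3 between 7.53 and 9.24 FPKM, while the row of ERBB2, joined with MIR4728, was at 126 and 125 FPKM in shCtr 2 and shZNF148 2 and at 20.1 to 24.8 FPKM in the other 4 samples. Read depth is unknown, and relative depth read from the steps between low values lay between 0.806 (shZNF148 3) and 1.13 (shZNF148 1) times that of shCtr 1. FPKM are relative to each library, and in bulk RNA fewer cells of a kind and less RNA per cell cannot be told apart.

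The question addressed here was whether this machinery, much of it MYC-driven, moved when ZNF148 was depleted. Among the 38 genes 1 fell and none rose at an adjusted p under 0.05 (limma on log2(FPKM + 1), Benjamini-Hochberg over 11777 rows), while over all rows tested 5.46% were higher and 8.13% lower. The gene that fell was GNL3, 2.63% of the 38. With a change over 1.5-fold also required, none of the 38 was higher or lower, against 1.83% and 3.66% of all rows. At an unadjusted p under 0.05 there were 8 of the 38 genes (21.1%), against 33.8% of all rows. Samples of the groups did not overlap for 7 genes that were higher (18.4%, against 20.0% of all rows) and for 4 that were lower (10.5%, against 21.0%).

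The changes were small in both directions. The 38 log2 changes ran from −0.26 (GNL3) to 0.40 (GRWD1), 20 positive and 18 negative, with a median of 0.006 beside 0.006 over all rows. Their median size without regard to sign was 0.12, against 0.19 for all rows. The 95% interval of the change lay within 1.5-fold in both directions for 36 of the 38 genes (94.7%), against 68.4% of all rows tested and 72.1% of the 10186 rows at or above the mean FPKM of BOP1, the lowest of the 38. The exceptions were UTP15 and GRWD1, whose intervals reached 0.63 and 0.68 on the log2 scale. These shares were not matched for level. The median of the mean FPKM was 27.8 for the 38 genes, 12.6 for all rows tested and 15.9 for the 10186 rows.

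**Figure D2:**
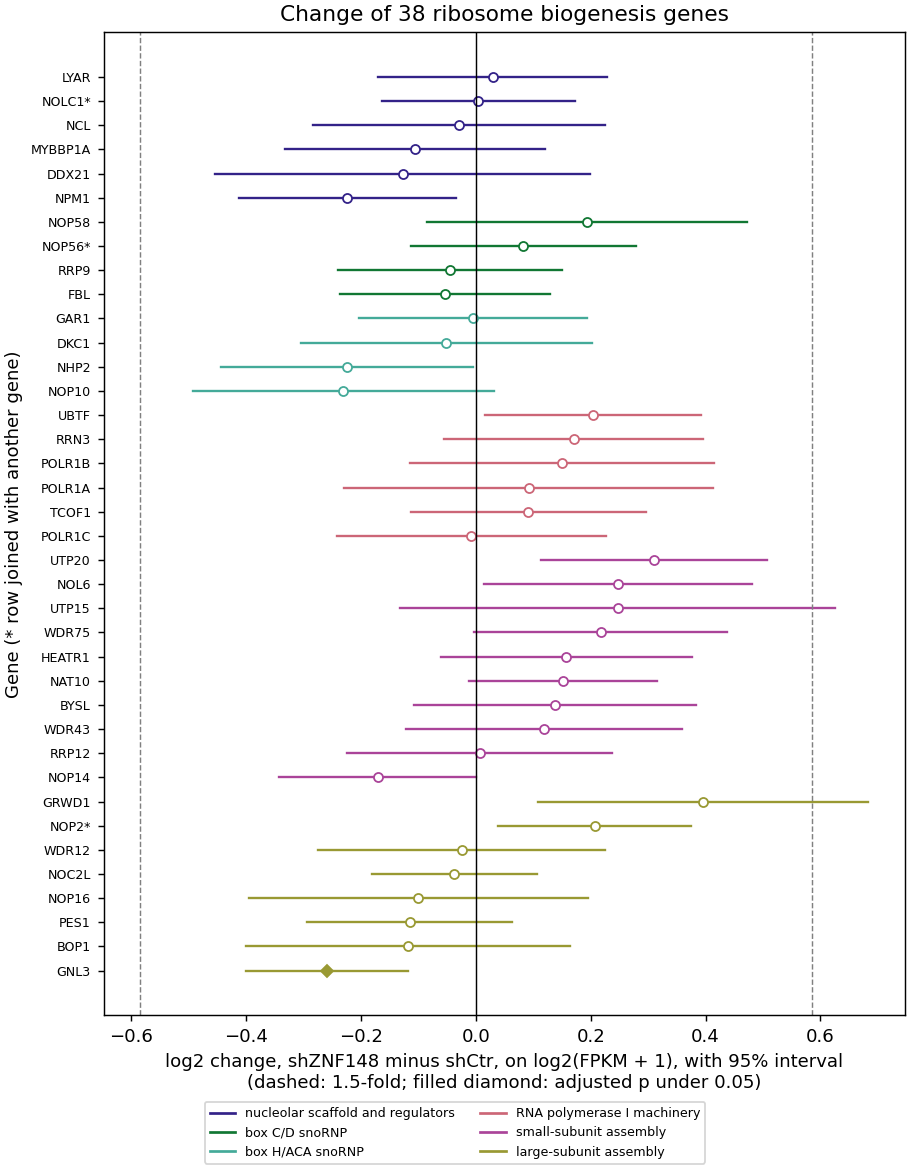
Log2 change (shZNF148 minus shCtr, on log2(FPKM + 1)) of each of the 38 genes with its 95% interval, coloured by role, with dashed lines at 1.5-fold and an asterisk at rows joined with another gene. GNL3, the filled diamond at −0.26, is the only gene past the test, and the intervals of UTP15 and GRWD1 alone cross the upper dashed line.

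MYC itself was at 92.8, 79.4 and 85.3 FPKM in shCtr 1, 2 and 3 and at 69.8, 65.7 and 71.3 in shZNF148 1, 2 and 3. Every shZNF148 sample was below every shCtr sample, and the gene fell by 0.31 on the log2 scale (SE 0.08, limma adjusted p = 0.0431). This call was lost in 10 of 15 alternative fits: without any 1 of the 6 samples (adjusted p from 0.0635 to 0.138), with a replicate block (0.0710), with quantile normalization (0.0784), with no mean-variance trend (0.0595) and with no filter (0.0555). Among the 33 genes with a promoter window, the median log2 change was −0.02 for the 16 with an E-box, 7 of them positive, and 0.08 for the 17 without, 9 of them positive. The set with an E-box includes the joined row of NOP2. The set without includes that of NOP56, whose own change is the median of 0.08, so this median rests on a row not assigned to a single gene. Whether the level of MYC bears on either set was not tested.

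Levels spanned a wide range. The mean over the 6 samples ran from 2.85 FPKM for BOP1 to 269 FPKM for NCL, with a median of 27.8 FPKM, compared with 12.6 FPKM over all rows tested. Levels per length were highest for the abundant scaffold proteins NCL and NPM1 (258 FPKM), the methyltransferase FBL (230 FPKM) and the small H/ACA protein NOP10 (171 FPKM). The 38 genes together made up 0.408%, 0.444% and 0.433% of the summed FPKM in shCtr 1, 2 and 3 and 0.454%, 0.387% and 0.472% in shZNF148 1, 2 and 3. By this share shZNF148 2 was below and its 2 companions above all shCtr samples. The totals differed, at 475213, 488173 and 469594 FPKM in shZNF148 1, 2 and 3 against 497730 to 507312 in shCtr. The sum over the 38 genes was 2160 and 2217 FPKM in shZNF148 1 and 3, within the shCtr range of 2072 to 2219, and 1891 in shZNF148 2, below it.

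**Figure D3:**
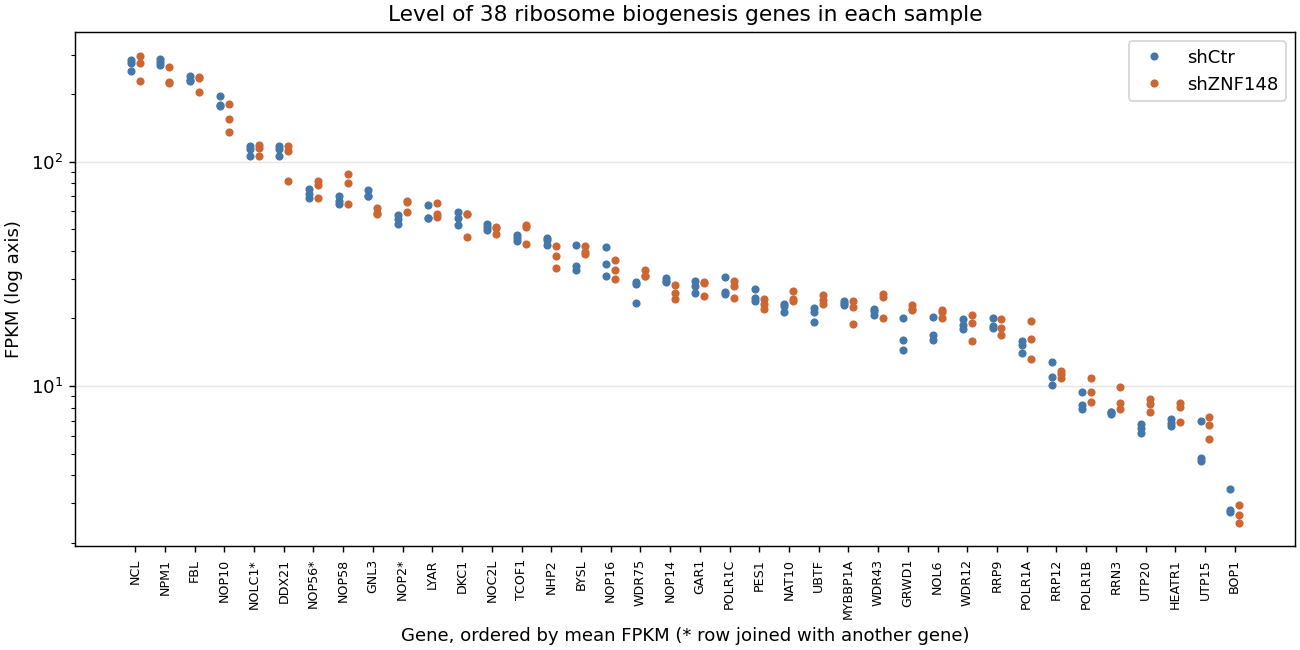
FPKM on a log axis in each of the 3 shCtr and 3 shZNF148 samples for the 38 genes, ordered by mean FPKM, with an asterisk at rows joined with another gene. Levels fall from 269 FPKM for NCL to 2.85 for BOP1, and for most genes the points of the groups interleave.

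Scaffold and regulatory proteins showed no call. NCL (nucleolin, an RNA-binding protein of the dense nucleolus; chromosome 2, 231453531 to 231483641 on GRCh38, minus strand) was at 253, 283 and 276 FPKM in shCtr 1, 2 and 3 and at 275, 228 and 297 in shZNF148 1, 2 and 3. Its lowest and its highest sample were both in the shZNF148 group, and its change was −0.03 (SE 0.11, limma adjusted p = 0.872). NPM1 (nucleophosmin, which forms the granular nucleolar layer) was given in every sample after its values were seen, at 286, 269 and 279 FPKM in shCtr and 225, 226 and 264 in shZNF148. All shZNF148 samples lay below all shCtr samples, with a change of −0.22 (SE 0.08, limma adjusted p = 0.102). This change passed the test in 1 of 15 alternative fits, without shZNF148 3 (−0.30, adjusted p = 0.0422). Under quantile normalization it was −0.12 (adjusted p = 0.354). The RNA helicase DDX21 was at 106, 117 and 114 FPKM in shCtr and at 112, 82.2 and 118 in shZNF148, again chosen after its values were seen. Only shZNF148 2 stood low, and without it the change of −0.13 turned to 0.03. MYBBP1A, a repressor of ribosomal RNA transcription, changed by −0.11, LYAR by 0.03 and the joined row of the snoRNP chaperone NOLC1 by 0.005.

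Box C/D snoRNPs carry the guide RNAs for ribose methylation. FBL, their methyltransferase (chromosome 19, 39834458 to 39846379, minus strand), was at 228, 232 and 242 FPKM in shCtr 1, 2 and 3 and at 239, 204 and 235 in shZNF148 1, 2 and 3. The groups overlapped, and the change was −0.05 (SE 0.08, limma adjusted p = 0.655). The core protein NOP58, picked after its values were seen, was at 66.8, 70.3 and 64.7 FPKM in shCtr and at 80.5, 64.4 and 88.1 in shZNF148. Samples 1 and 3 of shZNF148 were above all controls and sample 2 below them, for a change of 0.19 (SE 0.12, limma adjusted p = 0.287). Without shZNF148 2 it was 0.32 (adjusted p = 0.0331), the 1 fit of 15 alternatives that passed. Without shZNF148 3 it was 0.10 (adjusted p = 0.561). Its partner NOP56, in a joined row, changed by 0.08, and RRP9, a protein of the U3 snoRNP, by −0.04.

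All 4 proteins of the box H/ACA snoRNP, which guides pseudouridylation, had a negative change, as did 49.1% of all rows, and none passed the test (median −0.14). NOP10 (chromosome 15, 34339159 to 34343180, minus strand) was at 177, 195 and 179 FPKM in shCtr 1, 2 and 3 and at 181, 136 and 155 in shZNF148 1, 2 and 3. Samples 2 and 3 of shZNF148 were below all controls and sample 1 was among them, with a change of −0.23 (SE 0.11, limma adjusted p = 0.189). NHP2, picked after its values were seen, was at 45.6, 42.6 and 44.6 FPKM in shCtr and at 38.01, 33.5 and 42.2 in shZNF148. Every shZNF148 sample was below every control, by a narrow margin for sample 3, and the change was −0.22 (SE 0.09, limma adjusted p = 0.141). DKC1, the pseudouridine synthase dyskerin, changed by −0.05 and GAR1 by −0.005. The sign turned in 1 of 15 alternative fits for DKC1 and in 3 for GAR1.

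In the RNA polymerase I machinery 5 of 6 changes were positive, beside 5992 of 11777 over all rows, and none passed the test (median 0.12). TCOF1 (treacle, which holds the polymerase and UBTF at ribosomal DNA; chromosome 5, 150357629 to 150400308, plus strand) was at 44.3, 46.9 and 45.7 FPKM in shCtr 1, 2 and 3 and at 51.0, 43.1 and 52.4 in shZNF148 1, 2 and 3. Samples 1 and 3 of shZNF148 were above and sample 2 below all controls, with a change of 0.09 (SE 0.09, limma adjusted p = 0.489). UBTF, the factor that opens and marks active ribosomal DNA, was at 19.2, 22.3 and 21.5 FPKM in shCtr and at 24.1, 25.6 and 23.2 in shZNF148. RRN3, the initiation factor that makes the polymerase competent, was at 7.66, 7.53 and 7.67 FPKM in shCtr and at 8.40, 9.88 and 7.92 in shZNF148. For both, given after their values were seen, all shZNF148 samples exceeded all controls and shZNF148 2 was the highest. UBTF changed by 0.20 (SE 0.08, limma adjusted p = 0.124) and RRN3 by 0.17 (SE 0.09, limma adjusted p = 0.252). A near-identical pseudogene of RRN3, RRN3P3, has a row of its own at 0.264 to 0.725 FPKM, so how reads were split between the copies is uncertain. The catalytic subunits POLR1A and POLR1B changed by 0.09 and 0.15, and POLR1C, shared with RNA polymerase III, by −0.008.

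Small-subunit assembly factors leaned highest of the 6 role groups, with 9 of 10 changes positive and a median of 0.15, and none passed the test. Over all rows 5992 of 11777 changes were positive. BYSL, which acts on late small-subunit precursors (chromosome 6, 41921499 to 41933046, plus strand), was at 33.0, 42.4 and 34.2 FPKM in shCtr 1, 2 and 3 and at 41.9, 38.7 and 39.7 in shZNF148 1, 2 and 3. Its highest sample was shCtr 2, and the change was 0.14 (SE 0.10, limma adjusted p = 0.384). UTP20, a very large U3-associated protein (chromosome 12, 101280105 to 101386618, plus strand), came nearest to the test and was therefore given in every sample, at 6.17, 6.74 and 6.47 FPKM in shCtr and 8.79, 7.69 and 8.31 in shZNF148. No shZNF148 sample overlapped the controls, with a change of 0.31 (SE 0.08, limma adjusted p = 0.0528). That p was 0.0476 with a pseudocount of 0.1 FPKM, 0.0492 with no mean-variance trend, 0.0401 without shZNF148 2 and 0.122 with a replicate block. The first 3 of these were the passing fits among 15 alternatives.

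Further small-subunit factors are given with values chosen after they were seen. NOL6 was at 16.03, 20.3 and 16.8 FPKM in shCtr and at 21.9, 20.1 and 21.3 in shZNF148, where shCtr 2 reached into the other group, and its change was 0.25 (SE 0.10, limma adjusted p = 0.132). WDR75, of the early complex that joins transcription to processing, was at 23.6, 28.4 and 29.1 FPKM in shCtr and at 30.9, 30.8 and 32.7 in shZNF148. The acetyltransferase NAT10, which modifies small-subunit ribosomal RNA, was at 21.3, 22.6 and 23.2 FPKM in shCtr and at 24.0, 24.5 and 26.4 in shZNF148. Neither of the last pair overlapped between groups, with changes of 0.22 (SE 0.09, limma adjusted p = 0.152) for WDR75 and 0.15 (SE 0.07, limma adjusted p = 0.174) for NAT10. UTP15 (0.25), HEATR1 (0.16), WDR43 (0.12) and RRP12 (0.007) overlapped between groups. NOP14 was the exception in sign, at 29.5, 29.1 and 30.2 FPKM in shCtr and 26.0, 24.4 and 28.3 in shZNF148, all below the controls (change −0.17, SE 0.07, limma adjusted p = 0.149).

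Large-subunit assembly held the gene that fell. GNL3 (nucleostemin, a nucleolar GTP-binding protein known for high levels in stem and tumour cells; chromosome 3, 52681156 to 52694497, plus strand) was at 74.4, 70.6 and 70.3 FPKM in shCtr 1, 2 and 3 and at 58.8, 58.3 and 62.4 in shZNF148 1, 2 and 3. All shZNF148 samples were below all controls, the group mean went from 71.8 ± 2.29 to 59.8 ± 2.25 FPKM (SD over 3 samples each), and the gene fell by 0.26 on the log2 scale (SE 0.06, 95% interval −0.40 to −0.12, limma adjusted p = 0.0382). An exact two-sided permutation test of this gene alone gave p = 0.1, the smallest that 3 against 3 samples allow. The call was lost with a block for the replicate number (adjusted p = 0.0935), with quantile normalization (0.0744), with no mean-variance trend (0.0573) and without shCtr 1 (0.136), shCtr 2 (0.0878), shCtr 3 (0.110) or shZNF148 1 (0.0927), with a change of −0.20 to −0.27 in these 7 fits.

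The other large-subunit factors went both ways. GRWD1, a histone-binding protein of the pre-ribosome (chromosome 19, 48445841 to 48457022, plus strand), had the largest change of the 38 genes and was given after its values were seen, at 14.4, 20.2 and 15.99 FPKM in shCtr and at 21.99, 21.9 and 23.0 in shZNF148. The controls were spread and all shZNF148 samples lay above them, with a change of 0.40 (SE 0.12, limma adjusted p = 0.0717). This change passed the test in 1 of 15 alternative fits, without shCtr 2 (0.53, adjusted p = 0.0497). With another sample left out the adjusted p reached 0.201. The joined row of NOP2, a methyltransferase of large-subunit ribosomal RNA, was at 52.8, 58.0 and 55.6 FPKM in shCtr and at 66.9, 59.7 and 66.1 in shZNF148, without overlap, and changed by 0.21 (SE 0.07, limma adjusted p = 0.0945, and 0.0406 without shZNF148 2). That was the 1 passing fit of 15 alternatives for this row, and with another sample left out the adjusted p reached 0.255. BOP1, PES1 and WDR12, which act as 1 complex, changed by −0.12, −0.12 and −0.02, NOP16 by −0.10 and NOC2L by −0.04, and all 5 overlapped between groups.

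Many of the 38 genes had the same lowest sample within each group. Sample shZNF148 2 was the lowest of its group for 32 of the 38 genes, while it was the lowest for 38.7% of all rows tested, and it was the lowest of all 6 samples for 20 genes, against 26.3% of all rows. In the controls, shCtr 1 was the lowest of its group for 27 of the 38 genes, against 35.03% of all rows. The median over the 38 genes of the deviation from the shCtr mean was −0.07, 0.06 and 0.004 in shCtr 1, 2 and 3 and 0.06, −0.08 and 0.09 in shZNF148 1, 2 and 3 (log2 scale). The shCtr values lie around 0 by construction, since their own mean is the reference. The shZNF148 samples lay on both sides of it. Over all rows these medians lay between −0.003 and 0.011. The part of this spread in each gene's change was not tested beyond leaving each library out. Without shZNF148 2 the calls among the 38 were NOP58, UTP20 and the joined row of NOP2 higher and GNL3 lower. In that fit 628 of 11777 rows were higher and 1092 lower. Without shZNF148 3 the calls among the 38 were NPM1 and GNL3, both lower, and 383 of 11777 rows were higher and 611 lower.

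**Figure D4:**
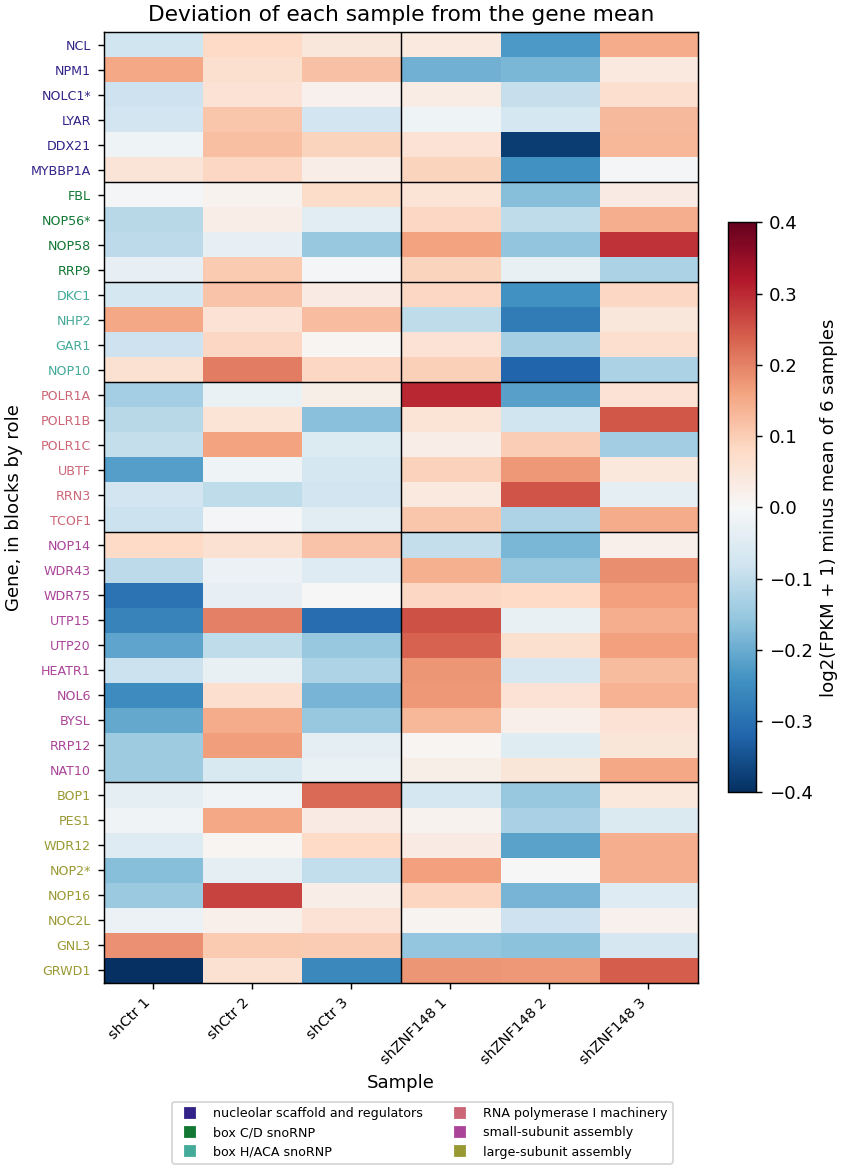
Deviation of log2(FPKM + 1) in each sample from the gene's mean over 6 samples, with genes in blocks by role, an asterisk at rows joined with another gene, and colours that saturate at the ends of the scale. The shZNF148 2 column is blue for most genes, with UBTF, RRN3 and GRWD1 among the exceptions, and GNL3 is red in all shCtr and blue in all shZNF148 samples.

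Other genes of the pathway were taken from 6 lists that leave out the 38 genes, with 158 rows tested. Of these 7 were called higher (4.43%, against 5.46% of all rows) and 4 lower (2.53%, against 8.13%), and the median change was 0.07. Among 48 other small-subunit factors (median 0.08) MPHOSPH10, a partner of the U3 snoRNP, rose by 0.26 (SE 0.07, limma adjusted p = 0.0495). Among 60 other large-subunit factors (median 0.05) URB2 rose by 0.47 (SE 0.10, adjusted p = 0.0365), the export GTPase LSG1 rose by 0.35 (SE 0.08, adjusted p = 0.0402) and NOC3L fell by 0.34 (SE 0.08, adjusted p = 0.0415). In 13 other rows of the RNA polymerase I machinery (median 0.05) the chromatin remodeller BAZ1B rose by 0.32 (SE 0.07, adjusted p = 0.0392). The entry of TAF1D in that list is a row joined with SNORA8 and further small RNAs, so it cannot be assigned to 1 gene. It was at 279, 372 and 352 FPKM in shCtr and at 260, 131 and 184 in shZNF148, without overlap, and its change of −0.85 (SE 0.25, adjusted p = 0.0644) was the largest of the 158 rows.

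Processing and polymerase lists had calls in both directions. In the RNA exosome list, which trims ribosomal RNA ends (15 rows, median 0.08), the exosome subunit EXOSC7 fell by 0.60 (SE 0.13, limma adjusted p = 0.0322), the only change of the 158 rows past the test and over 1.5-fold. EXOSC7 was at 31.2, 26.5 and 26.4 FPKM in shCtr 1, 2 and 3 and at 19.1, 15.1 and 20.5 in shZNF148 1, 2 and 3, with no overlap. Its change was under 1.5-fold without shZNF148 2 (−0.48), without shCtr 1 (−0.52) and with a pseudocount of 5 FPKM (−0.51). The exonuclease ISG20L2 of the same list rose by 0.42 (SE 0.10, adjusted p = 0.0436). Among 11 genes of snoRNP assembly (median −0.03) the ATPase RUVBL2 fell by 0.26 (SE 0.06, adjusted p = 0.0393) and COIL, the scaffold of Cajal bodies, by 0.36 (SE 0.07, adjusted p = 0.0255). Among 11 RNA polymerase III subunits (median 0.21, 9 positive), the catalytic subunits POLR3A and POLR3B rose by 0.29 (SE 0.07, adjusted p = 0.0411) and 0.55 (SE 0.13, adjusted p = 0.0376). None of these 11 calls held with a replicate block, nor without shCtr 1, shCtr 2, shCtr 3 or shZNF148 1.

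The RNA partners of the snoRNPs were poorly measured. Of 390 rows named only for small nucleolar or Cajal body RNAs, 279 were listed at 0 in all samples and 105 were tested, of which 92 were listed at 0 in at least 1 sample. None was called higher and 3 were called lower (2.86%, against 8.13% of all rows), and these were named after their values were seen. SNORA8 was at 46.6, 42.8 and 59.1 FPKM in shCtr and at 27.5, 27.8 and 19.3 in shZNF148 (log2 change −0.97, SE 0.17, limma adjusted p = 0.0228). SNORA8 is also part of the joined TAF1D row, so how its reads were split between the rows is uncertain. A row of SCARNA15 was at 3.44, 5.27 and 4.36 FPKM in shCtr and at 2.37, 1.71 and 2.37 in shZNF148 (log2 change −0.76, SE 0.16, limma adjusted p = 0.0325), while its other row was listed at 0 in all samples but shCtr 3. SCARNA16 was at 10.2, 13.99 and 9.65 FPKM in shCtr and at 4.49 in shZNF148 1, and was listed at 0 in shZNF148 2 and 3. The calls were lost in 5 of 15 alternative fits for SNORA8, 8 of 15 for SCARNA16 and 8 of 13 for SCARNA15. For such short RNAs an FPKM value rests on few reads.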

How the data were processed

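RNA-seq values of 3 shCtr and 3 shZNF148 MDA-MB-231 samples were analysed, grouped by their labels. The authors deposited 1 table of normalised FPKM values, with a column for each sample and 0 columns of other samples. The submitters' processing notes name bcl2fastq 2.17.1.14, TopHat2 2.0.14, Cufflinks 2.2.1 and Cuffnorm 2.2.1 with the builds hg18 and hg19, whereas the study's methods name Salmon on GRCh38 and DESeq2. Which of these gave the FPKM values is not stated. Read depth is unknown, so precision rests on the 3 samples per group, and no count test was run.

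Rows averaging at least 1 FPKM over the 6 samples were tested on log2(FPKM + 1) with limma 3.58.1 in R 4.3.3 (eBayes with a mean-variance trend, Benjamini-Hochberg over all rows). The pseudocount lowers the fold changes of weakly expressed genes. Calls needed an adjusted p under 0.05 and were counted again over 1.5-fold. The scripts were tested on simulated data. The genes, their role groups and the pathway lists were chosen with earlier results of these data known. All 38 genes could be named. Values in every sample were planned for called genes and for the most abundant gene of each role group, and up to 3 called rows per direction were named from each pathway list. Older symbols were matched through NCBI and RefSeq names. Gene coordinates and lengths came from GENCODE release 44 (GRCh38), and promoter sequences from RefSeq (GRCh38.p14). Genes named outside the 38 were run under the alternatives after seeing the data. Alternatives were other filters, pseudocounts and scalings, no trend, a replicate block, summed rows and leaving out each sample.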

Additional observations from a re-analysis of the deposited data

How the results depend on the processing

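Across 15 alternatives, 32 of the 38 nucleolar genes were never called, 25 kept the sign of their change in each, and the median change of the 38 lay between −0.04 and 0.08 with 1 sample left out and between 0.003 and 0.06 otherwise. Calls among the 38 were few under each setting, but in some fits few of the 11777 rows were called at all. Without shCtr 1 these were 3 higher and 26 lower, and without shCtr 3 they were 3 higher and 19 lower. There, 0 calls among the 38 say little about these genes. The 3 genes called higher came without shZNF148 2, where 628 of 11777 rows were higher and 1092 lower. Genes called higher numbered 1 with a pseudocount of 0.1 FPKM and with no mean-variance trend, and 0 to 3 with 1 sample left out. Genes called lower numbered 0 with quantile normalization, no mean-variance trend and the replicate block, and 0 to 2 with 1 sample left out. Near 0, signs turned. Under quantile normalization NCL was at 0.0699, FBL at 0.0483, GAR1 at 0.0155, POLR1C at 0.00471 and RRP12 at −0.00026. With 1 sample left out the change ran from −0.11 to 0.0788 for NCL, from −0.0364 to 0.0517 for NOLC1, from −0.0289 to 0.0911 for LYAR, from −0.225 to 0.031 for DDX21, from −0.0949 to 0.0182 for FBL, from −0.101 to 0.00803 for RRP9, from −0.106 to 0.0566 for DKC1, from −0.0476 to 0.0607 for GAR1, from −0.035 to 0.224 for POLR1A, from −0.0592 to 0.0709 for POLR1C, from −0.0626 to 0.0923 for RRP12, from −0.104 to 0.077 for WDR12 and from −0.199 to 0.0105 for NOP16. The cause was not tested.

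Counts over the whole table depended on each library. All rows called higher numbered 401 with no filter on low values and 3 to 628 with 1 sample left out, and all rows called lower numbered 19 to 1092 with 1 sample left out. The lowest counts, 3 higher with 26 lower and 3 higher with 19 lower, came without shCtr 1 and without shCtr 3. ZNF148 was lower in each fit, between −1.74 and −1.45 with 1 sample left out, at −2.57 with a pseudocount of 0.1 FPKM and at −0.69 with 5 FPKM. In the other ribosome biogenesis lists, called rows numbered 1 higher with no filter, 4 higher and 2 lower with no mean-variance trend, and 0 to 6 higher and 0 to 4 lower with 1 sample left out. Of the small nucleolar RNA rows, 1 was called lower with no filter, and 0 to 4 were called higher and 0 to 2 lower with 1 sample left out. A minimum mean of 5 FPKM left out ZNF148 and BOP1.

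Whether equal replicate numbers mark paired samples is unknown. Deviations of same-numbered samples correlated at 0.001, −0.09 and 0.03 over the rows tested, and the labels give no shared culture, so the samples were treated as sharing only a number. The ERBB2 and MIR4728 row, high in both samples numbered 2 alone, is a case where equal numbers went together. With a replicate block, 130 rows were called higher and 271 lower over the whole table, 0 of the 38 genes in either direction, 0 higher and 0 lower in the other lists, and 1 higher and 0 lower among small nucleolar RNA rows, while ZNF148 stayed called. Depth limits the low rows most, and it is unknown here.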

Other observations

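Change and transcript length went together across the nucleolar genes, a relation looked at after the values were seen. Over the 35 genes with a row of their own, Spearman's rho between the log2 change and the length of the GENCODE canonical transcript was 0.58, while over 10968 tested rows with a length it was 0.04. The 18 genes with a transcript of up to 3506 bases had a median change of −0.05, 5 of them positive, and the 17 genes with a longer one had a median of 0.15, 12 of them positive. Over all rows split at the same length the medians were −0.004 and 0.015. The 5 longest transcripts are those of POLR1A, UTP20, HEATR1, WDR12 and POLR1B, and the 5 shortest those of NOP10, NHP2, NOP16, GAR1 and FBL. Change also went with level, with a rho of −0.43 over the 38 genes and −0.07 over 11777 rows. Both are correlations across genes measured in the same 6 libraries, and genes are not independent replicates. The role groups differ in length and level as well, and these were not separated.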
